A study of Mus musculus with 8 samples.

Results

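Genes that mark Schwann cell precursors and satellite glia were examined in the dorsal root ganglia of mouse embryos of stage E12.5. The list held 10 genes, Sox10, Fabp7, Dhh, Art3, Cdh19, Foxd3, Ednrb, Pou3f1, Plekhb1 and Metrn, and its members were found by the gene symbol of each array probe. Of the 10 genes, 9 had a probe named for them, 13 probes in all, among 16593 named genes on the array. Sox10, the transcription factor that specifies peripheral glia, was not named for any probe in the annotation used and was not analysed here. Total RNA was measured on Illumina bead arrays in 4 wild-type and 4 mutant samples. The mutant, labelled Erk1/2CKO(Wnt1), is here the Erk1/2 mutant. Cre under Wnt1 control acts in the neural crest, so that Cre targets both neurons and glia of the ganglia. It does not target blood and vessel lining cells, which are of other origin. Whether both genes are intact in those other cells was not checked here. The ganglia came from 3 litters, and the labels give neither the litter of each sample nor whether a sample was pooled. The deleted genes were not analysed here, so the genotype labels were not checked against them.

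Schwann cell precursors and satellite glia arise from neural crest cells under the control of Sox10. Schwann cell precursors lie along growing axons, depend on neuregulin from those axons acting through ErbB receptors and the ERK cascade, and release Dhh to organise the nerve sheath. Satellite glia wrap the cell bodies of sensory neurons inside the ganglion. At this stage the glia of the ganglion express early genes such as Fabp7, and myelination has not begun.

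In the mutant, Plekhb1 and Art3 fell, and no member rose. Plekhb1, a pleckstrin homology domain protein gene, was 2.72-fold higher in wild-type than in mutant ganglia, and Art3, a gene of the ADP-ribosyltransferase family, 1.60-fold. Dhh, Metrn, Fabp7 and Ednrb had negative log2 differences of -0.86, -0.84, -0.52 and -0.24 and did not pass the test. Foxd3, Cdh19 and Pou3f1 lay below the filter on dim probes, a mean log2 intensity of 6.71 over the 8 arrays, and were not part of that test. Of the 6 members tested, 2 were lower and 0 higher at an adjusted p under 0.05; of all 8935 named genes tested, 1.11% were lower and 1.4% higher. Differences were negative for 6 of 6 members, with a median of -0.76, and for 49.5% of all genes tested, with a median of 0.0018. In whole ganglia, fewer glial cells and less of a transcript in each cell cannot be told apart.

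Log2 intensities below follow background correction and quantile normalization, SDs describe the 4 arrays of 1 genotype, and each difference is mutant minus wild-type with its standard error from limma. The p-values were adjusted over all 9664 features, 729 of them unnamed probes. The raw median intensity of an array was 144 to 159 in the wild-type and 138 to 147 in the mutant. Wild-type replicates 1 and 2 resembled each other (r = 0.994 across genes, which are not independent), as did replicates 3 and 4 (r = 0.993), and the latter pair stood apart on the first principal component (25.7 and 21.1, against -12.2 to -3.02 for the other 6 arrays). Tested members are therefore also given against each wild-type pair. Tissue identity was checked on marker lists. Of 18 sensory neuron markers on the array 15 were above the filter, of 9 skeletal muscle markers 4 and of 9 melanoblast markers 1. For 7 spinal cord progenitor markers the count was 2, and for 13 macrophage markers 11. Of 12 mesenchyme markers 12 were above it, of 9 endothelial markers 8 and of 10 erythroid markers 8. Of all 16593 named genes on the array, 8935 were above it. These counts do not show that the samples were free of other tissue.

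The intracellular and membrane proteins of the list come first. Plekhb1 read 8.87, 9.14, 8.98 and 8.70 on wild-type replicates 1 to 4, and 7.55, 7.15, 8.14 and 7.07 on mutant replicates 1 to 4. Every mutant array lay below every wild-type array, and mutant replicate 3 was the closest to the wild-type. Means were 8.92 ± 0.18 (SD, n = 4) and 7.48 ± 0.49, a log2 difference of -1.44 ± 0.21 (SE, limma adjusted p = 0.00854). Against wild-type replicates 1 and 2 the difference was -1.52, and against replicates 3 and 4 it was -1.36. Plekhb1 passed the test under each of the 21 alternatives in which it could be tested, with differences of -1.66 to -1.25.

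Art3 was measured by 3 probes. The brightest read 8.0, 7.64, 7.90 and 8.32 in the wild-type and 7.31, 7.12, 7.41 and 7.32 in the mutant. The groups did not overlap. This was so for 3 of the 6 members, with the mutant lower, and for 5.65% of all genes tested. The log2 difference was -0.68 ± 0.13 (limma adjusted p = 0.0328, n = 4 per group). The second probe read 7.47, 7.28, 7.74 and 7.91 against 6.99, 7.16, 6.94 and 7.21, again without overlap. In a fit over every probe of the array its difference was -0.53 ± 0.13 (adjusted p = 0.0830). The third, below the filter level, differed by -0.15 ± 0.08 (adjusted p = 0.466). Against wild-type replicates 1 and 2 the difference at the brightest probe was -0.53, and against replicates 3 and 4 it was -0.82. The 4 mutant arrays lay within 7.12 to 7.41 at the brightest probe, and mutant replicates 3 and 4 differed there by 0.08. Art3 lost its call when any single array but wild-type replicate 2 was left out (adjusted p = 0.0523 to 0.103).

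Fabp7, a fatty acid binding protein of early glia and progenitors, read 9.72, 9.42, 8.91 and 9.08 in the wild-type and 8.68, 8.69, 9.19 and 8.47 in the mutant. Mutant replicate 3 lay above wild-type replicates 3 and 4, so the groups overlapped. The difference was -0.52 ± 0.19 (95% confidence interval -0.96 to -0.09, limma adjusted p = 0.188, n = 4 per group). It was -0.81 against wild-type replicates 1 and 2 and -0.24 against replicates 3 and 4.

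Cdh19, a cadherin of Schwann cell precursors, read 6.75, 6.80, 6.49 and 6.77 in the wild-type and 6.47, 6.42, 6.93 and 6.51 in the mutant. Mutant replicate 3 was the highest of the 8 arrays, and wild-type replicate 3 lay with the other mutant arrays. The difference in the fit over every probe was -0.12 ± 0.12 (interval -0.38 to 0.14, adjusted p = 0.767). The mean of this probe over the 8 arrays, 6.64, was just under the filter level.

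**Figure D1:**
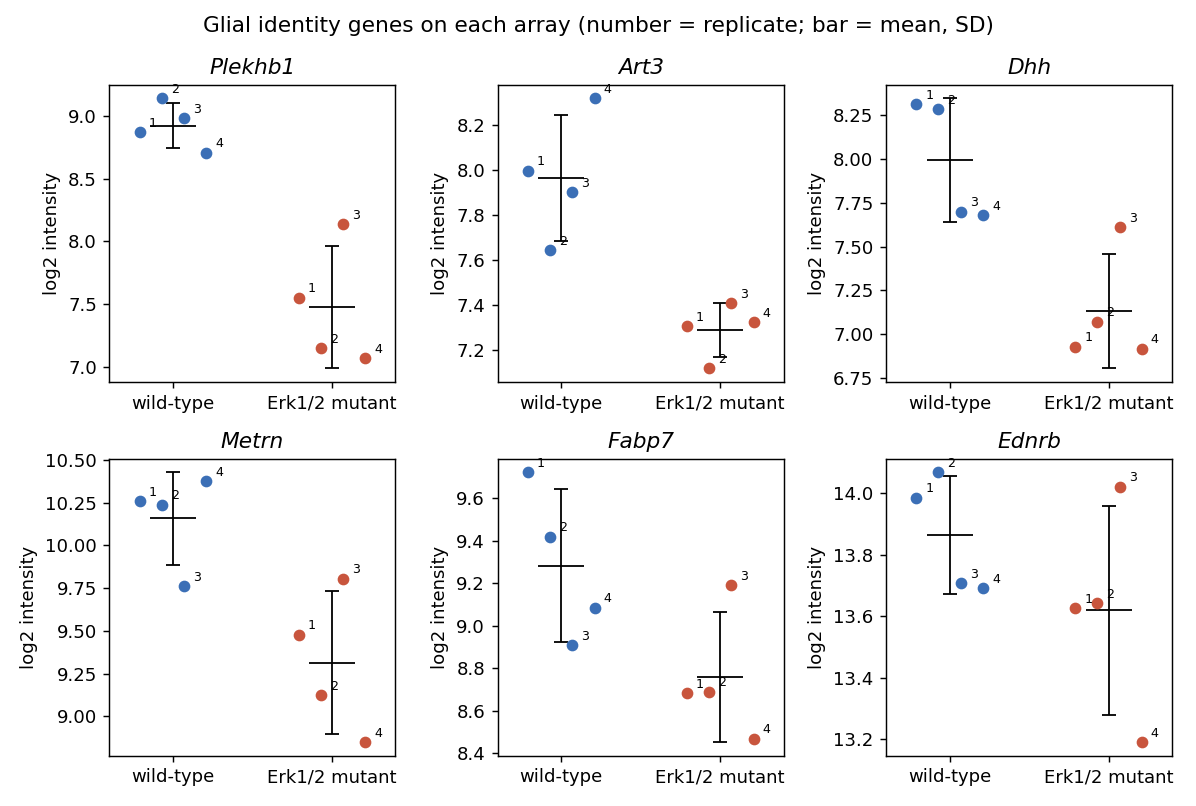
Log2 intensity (y axis) of the 6 tested members on each wild-type (blue) and Erk1/2 mutant (red) array, with replicate numbers; bars are the mean and SD of 4 arrays, and each panel has its own y scale. Each panel shows the brightest probe of the gene. The groups are separate for Plekhb1, Art3 and Dhh, and mutant replicate 3 is the highest mutant array in every panel. At the second Art3 probe, which is not drawn, it was the lowest mutant array.

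Promoter sequences are shown for the members that fell, since these are the ones on which the comparison turns. RefSeq start sites of the GRCm38.p6 build, taken as 250 bases before to 50 after a start, were on hand for 7 of the members, in 10 windows; Plekhb1 has 2 starts and Art3 3. Capitals mark matches to ACAAAG or ACAATG, the core letters that SOX proteins such as Sox10 recognise, on either strand. For Art3 only start 3, which holds a match, is printed. Starts 1 and 2 of Art3 held none.
Plekhb1 start 1, chr7:100662345-100662644, strand -: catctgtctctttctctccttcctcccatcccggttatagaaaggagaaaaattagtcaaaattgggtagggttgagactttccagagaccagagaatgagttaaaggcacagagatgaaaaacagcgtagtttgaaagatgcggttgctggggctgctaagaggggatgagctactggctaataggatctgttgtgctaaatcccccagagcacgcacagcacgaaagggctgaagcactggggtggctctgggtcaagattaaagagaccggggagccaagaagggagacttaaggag
Plekhb1 start 2, chr7:100656916-100657215, strand -: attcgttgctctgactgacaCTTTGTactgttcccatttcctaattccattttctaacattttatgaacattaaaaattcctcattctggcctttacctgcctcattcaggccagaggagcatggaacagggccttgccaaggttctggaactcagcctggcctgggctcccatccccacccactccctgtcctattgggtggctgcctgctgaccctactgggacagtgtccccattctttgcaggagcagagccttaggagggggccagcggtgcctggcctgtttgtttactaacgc
Art3 start 3, chr5:92387884-92388183, strand +: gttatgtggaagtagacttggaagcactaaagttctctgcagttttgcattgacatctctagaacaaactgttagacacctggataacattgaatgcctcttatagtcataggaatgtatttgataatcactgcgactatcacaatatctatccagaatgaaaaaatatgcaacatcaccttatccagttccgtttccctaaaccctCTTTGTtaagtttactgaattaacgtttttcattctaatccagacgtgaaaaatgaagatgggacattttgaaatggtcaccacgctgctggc
The search covered both strands, and the 2 motifs do not overlap in these windows. A match was found in 2 of the 10 windows, the second start of Plekhb1 at 230 bases before the start and the third start of Art3 at 43 bases before it, and in 28.6% of all 32851 windows of this length. The letters CCGGAAG, a strong site for ETS factors that ERK phosphorylates, occurred in 0 of the 10 windows and in 8.86% of all windows. The array does not tell which start was in use.

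Among the secreted signals, Dhh and Metrn were measured by 1 probe each. Dhh, which Schwann cell precursors send to the future perineurium, read 8.31, 8.29, 7.70 and 7.68 in the wild-type and 6.93, 7.07, 7.61 and 6.92 in the mutant. The groups did not overlap, although mutant replicate 3 came within 0.07 of the lowest wild-type array. The difference of -0.86 ± 0.20 (limma adjusted p = 0.0525, n = 4 per group, interval -1.30 to -0.42) missed the threshold. It was -1.17 against wild-type replicates 1 and 2 and -0.56 against replicates 3 and 4. Dhh passed without mutant replicate 3, the highest mutant array (-1.02, adjusted p = 0.0270), and with wild-type replicates 3 and 4 left out (-1.17, adjusted p = 0.0171). Those arrays lay nearest to the other group, so these small p-values follow from leaving them out. No fall of Dhh is read from them. With any of the other 7 arrays left out singly it did not pass (adjusted p = 0.0608 to 0.168). On all 8 arrays Dhh passed in the limma fit over every probe (adjusted p = 0.0411) and with no filter (0.0466). It also passed under median scaling (0.0489) and with array weights (0.0262). In all, Dhh passed under 6 of 21 alternatives.

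Metrn encodes meteorin, a secreted factor of glial progenitors and satellite glia that promotes axon extension. Its log2 intensity was 10.26, 10.24, 9.76 and 10.38 in the wild-type and 9.48, 9.12, 9.81 and 8.85 in the mutant. Wild-type replicate 3 and mutant replicate 3 were at nearly the same level, and the other arrays were separated by group. The difference was -0.84 ± 0.20 (limma adjusted p = 0.0634, n = 4 per group, interval -1.30 to -0.39). It was -0.93 against wild-type replicates 1 and 2 and -0.76 against replicates 3 and 4. Metrn passed without mutant replicate 3, its highest mutant array (-1.01, adjusted p = 0.0330), and without wild-type replicate 3, its lowest wild-type array (-0.98, adjusted p = 0.0495). Each of those arrays lay nearest to the other group, so these small p-values follow from leaving it out. No fall of Metrn is read from them. With any of the other 6 arrays left out Metrn did not pass (adjusted p = 0.103 to 0.175).

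Ednrb, the receptor for endothelins that neural crest cells, melanoblasts and immature glia carry, was measured by 3 probes. The brightest read 13.99, 14.07, 13.71 and 13.69 in the wild-type and 13.63, 13.64, 14.02 and 13.19 in the mutant. Mutant replicate 3 lay among the wild-type arrays and mutant replicate 4 was the lowest. The difference was -0.41 against wild-type replicates 1 and 2 and -0.080 against replicates 3 and 4. Over all arrays it was -0.24 ± 0.16 (limma adjusted p = 0.470, n = 4 per group, interval -0.61 to 0.12). The second probe read 11.97, 12.01, 11.68 and 11.77 against 11.51, 11.19, 11.73 and 10.96, a difference of -0.51 ± 0.15 in the fit over every probe (adjusted p = 0.148). The third read 9.01, 9.10, 8.58 and 8.73 against 8.25, 8.30, 9.0 and 7.70, with -0.55 ± 0.21 (adjusted p = 0.313). At all 3 probes the order of the mutant arrays had replicate 3 first and replicate 4 last. The raw intensity of the brightest probe was 9323 to 18451, with a scanner maximum not given in the sources used here, and none of the 3 passed the test, although the second did under median scaling (-0.63, adjusted p = 0.0463).

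The transcription factors of the list gave little signal. Foxd3, a forkhead factor of neural crest and early glia, read 6.18 to 6.29 in the wild-type and 6.10 to 6.31 in the mutant, with a difference of -0.03 ± 0.08 (adjusted p = 0.925 in the fit over every probe, n = 4 per group). Pou3f1, a POU factor of Schwann cells that are about to myelinate, read 6.66, 5.90, 6.36 and 7.40 in the wild-type and 6.21, 6.35, 6.62 and 6.29 in the mutant. The wild-type arrays spanned the mutant range, and the difference was -0.21 ± 0.24 (interval -0.72 to 0.30, adjusted p = 0.804). Its sign turned to 0.06 without wild-type replicate 4. Raw intensities were 106 to 130 for Foxd3, below the median of every array, and 106 to 224 for Pou3f1, which exceeded its array's median of 159 on wild-type replicate 4. The lowest values of the arrays were 80.3 to 94.6, and no detection p-values were on hand.

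**Figure D2:**
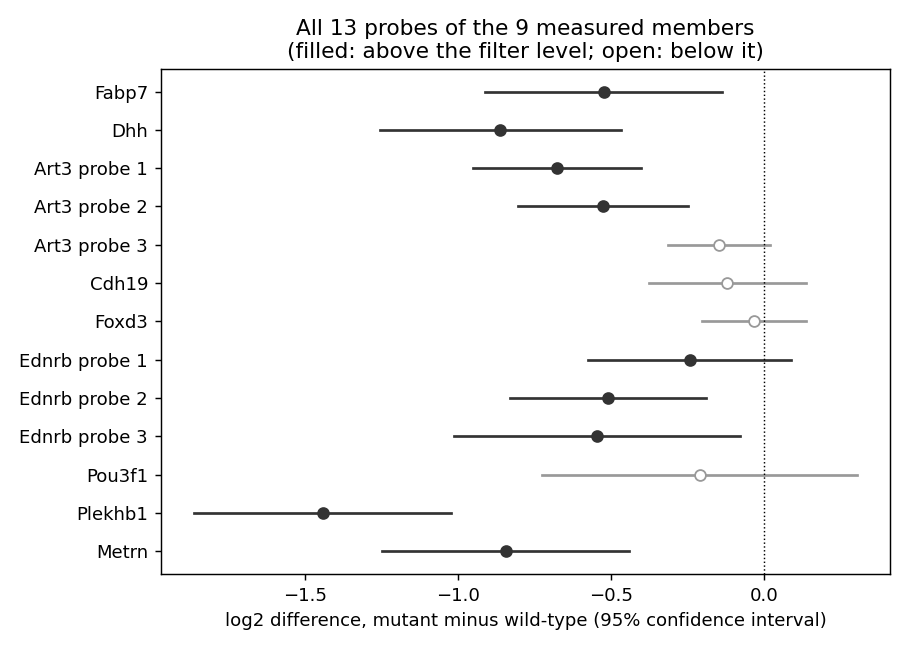
Log2 difference, mutant minus wild-type (x axis), with its 95% confidence interval for each of the 13 probes of the 9 measured members (y axis), from the fit over every probe of the array. The intervals of Plekhb1, Dhh, Metrn, Fabp7, Art3 probes 1 and 2 and Ednrb probes 2 and 3 lie below 0, before adjustment, and the open points are probes under the filter level.

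The members varied within the mutant group as well as between groups. This spread was known when the list was drawn up, and it is given as a description. At the brightest probe of each gene, mutant replicate 3 was the highest mutant array for 6 of the 6 tested members. Replicate 4 was the lowest of all 8 arrays for 5, Art3 being the exception. The share of all genes with these orders was not computed. At the second Art3 probe, also above the filter, replicate 3 was the lowest mutant array and replicate 4 the highest (replicate 3 minus replicate 4, -0.27). At the brightest probes replicate 3 exceeded replicate 4 by 1.07 for Plekhb1, 0.96 for Metrn, 0.83 for Ednrb, 0.72 for Fabp7, 0.70 for Dhh and 0.08 for Art3. A gap over 0.5, a limit chosen after the values were seen, was thus found for 5 of 6 members, against 4.73% of all genes tested. Centred on the 8 arrays and averaged over the 6 members, the level was 0.54, 0.48, 0.18 and 0.33 in the wild-type and -0.39, -0.52, 0.05 and -0.68 in the mutant. Mutant replicate 3 thus stood below the lowest wild-type array, and much nearer to it than to the other mutant arrays.

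Markers of other cells also differed between these arrays, not all in the same order. The 11 macrophage markers tested had a centred level of -0.36 to -0.26 on the wild-type arrays, and of 0.25, 0.56, 0.93 and -0.49 on mutant replicates 1 to 4. The mutant arrays with the most and the least macrophage signal were thus those with the highest and the lowest glial level. Of the 11, 0 passed the test, with 6 under an unadjusted p of 0.05 in limma, as had 18.1% of all genes tested, and all had positive differences (median 0.69). C1qb, a complement gene, stood at 0.88 ± 0.39 (limma adjusted p = 0.274) and Fcer1g, an immunoglobulin receptor subunit, at 0.48 ± 0.24 (adjusted p = 0.319). Without mutant replicate 4, C1qb stood at 1.34 (limma adjusted p = 0.0149) and Fcer1g at 0.74 (adjusted p = 0.0289), both past the threshold. That array had the least macrophage signal and the lowest value of both genes, so these small p-values follow from leaving it out. No rise of macrophage genes is read from them. With any other array left out singly, neither gene passed. Skeletal muscle markers were at 0.36 and 0.62 on mutant replicates 3 and 4 and at -0.35 and -0.50 on replicates 1 and 2. Sensory neuron markers ranged from -0.34 to 0.13 in the wild-type and stood at 0.09, 0.02, -0.03 and 0.29 on mutant replicates 1 to 4. Among the mutant arrays replicate 3 was thus the lowest and replicate 4 the highest, the reverse of the glial level. Over all 8 arrays these markers were lowest on wild-type replicates 3 and 4, where Dhh, Fabp7 and Ednrb were lower than on replicates 1 and 2. On that wild-type pair erythroid markers stood at 0.71 and 0.36 and proliferation genes at 0.72 and 0.60, against -0.36 to -0.05 and -0.38 to -0.12 on the other 6 arrays. Of the 15 neuron markers 1 rose, Tlx3, a sensory neuron factor, by 0.75 ± 0.12 (limma adjusted p = 0.0108), and 0 fell. In the same test 0 of 8 erythroid, 12 mesenchyme, 8 endothelial, 4 muscle, 2 spinal cord and 5 proliferation genes passed, with 2, 2, 1, 0, 0 and 2 under an unadjusted p of 0.05. The part of any of these lists in the members' values was not tested.

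The brightest genes of the lists without a call are named next. Top2a, a topoisomerase gene of dividing cells, read 10.38, 10.41, 11.45 and 11.36 in the wild-type and 10.16 to 10.53 in the mutant, a difference of -0.54 ± 0.24 (limma adjusted p = 0.276), and the replication licensing gene Mcm5 stood at -0.56 ± 0.28 (adjusted p = 0.317). Both were highest on wild-type replicates 3 and 4. Against that pair alone Top2a stood at -1.05 (limma adjusted p = 0.00154) and Mcm5 at -1.15 (adjusted p = 0.00127). Against wild-type replicates 1 and 2 alone, Top2a stood at -0.037 and Mcm5 at 0.026. The 2 small p-values follow from the pair on which these genes were highest, and no loss of proliferation genes is read from them. The hemoglobin genes Hba-a1 and Hbb-y stood at 0.070 and 0.086. Their group means of 14.33 to 14.46 were above those of any Ednrb probe, and a signal ceiling was not checked. Of the 8 erythroid genes tested, 5 had negative differences. The matrix genes Dcn and Fbln1 stood at 0.051 and 0.050. The endothelial genes Egfl7 and Emcn stood at 0.0076 and -0.24, and the muscle troponin genes Tnnc1 and Tnnt1 at 0.10 and 0.070. Among the progenitor genes, Hes5, a target of Notch signalling, stood at 0.44 ± 0.22 (adjusted p = 0.333) and Nkx6-1, a homeobox factor of the ventral spinal cord, at 0.30 ± 0.22 (adjusted p = 0.520). Of these 12 genes all but Emcn, Hes5 and Top2a changed sign under at least 1 other setting, so that no direction is given for those 9.

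**Figure D3:**
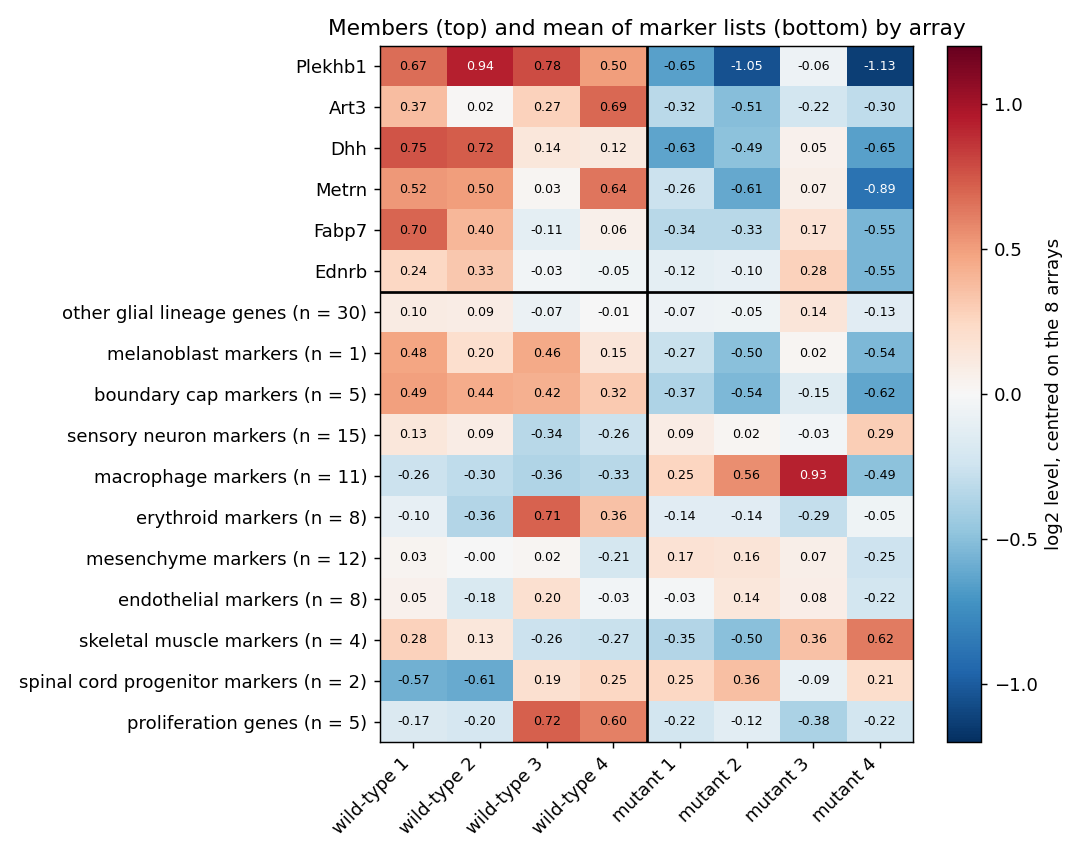
Log2 level centred on the mean of the 8 arrays (colour and printed value) for the 6 tested members, above the line, and for the mean of each marker list, below it, by array (columns). Mutant replicate 3 lies near 0 for most members and at 0.93 for macrophage markers, and mutant replicate 4 is low for both.

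The wider glial lineage did not move as one. Of 50 further genes listed for peripheral glia, 39 were on the array and 30 above the filter, of which 2 fell, 1 rose and 27 did not pass; 14 had negative differences, and their median was 0.03. Among all genes tested 2.51% passed in either direction. Egr2, a transcription factor of boundary cap cells and of the myelin programme, fell by 1.5 on the log2 scale (SE 0.10, limma adjusted p = 8.3e-05). The wild-type mean was 7.93, and all mutant arrays read 6.39 to 6.49, under the filter level. Egr2 thus passed the filter only through the wild-type arrays, and its fold change is measured against a dim level. Id2, an inhibitor of basic helix-loop-helix factors, fell by 0.55 (SE 0.09, adjusted p = 0.0151), and as the mean of its probes stood at -0.32 without a call (adjusted p = 0.0692). Id2 was also not called without wild-type replicate 4 or mutant replicate 2 (adjusted p = 0.0532 and 0.0519). Mbp, the myelin basic protein gene, rose by 1.27 ± 0.28 (adjusted p = 0.0459), a call lost without any 1 wild-type array or mutant replicate 1 or 2 (0.0568 to 0.133), and as the mean of its probes it stood at 0.75 (adjusted p = 0.0413). Mbp read 10.15, 10.20, 11.13 and 9.67 in the mutant, highest on replicate 3 and lowest on replicate 4. Plekhb1, Metrn, Ednrb, Fabp7 and Dhh had the same order at those ends.

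The 27 genes without a call ran from -1.03 ± 0.35 for Id4 (limma adjusted p = 0.157), an inhibitor of basic helix-loop-helix factors like Id2, to 1.05 ± 0.60 for Sostdc1 (adjusted p = 0.389), a secreted antagonist of BMP and Wnt signals. Zeb2, a zinc finger factor of Schwann cells, came closest to the threshold (0.42 ± 0.09, adjusted p = 0.0502). Those 3 were chosen after their values were seen. No probe was named for Erbb3 in the annotation used, and this gene was not analysed here.

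**Figure D4:**
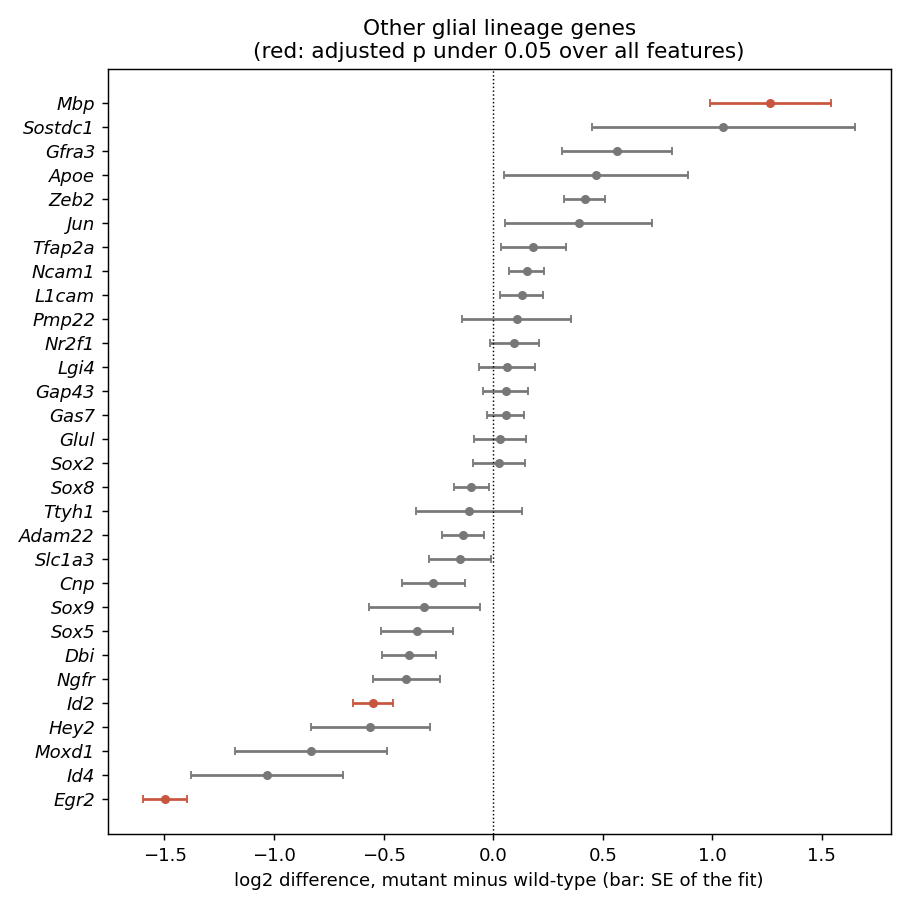
Log2 difference, mutant minus wild-type (x axis), with the standard error of the fit, for the 30 further glial lineage genes above the filter (y axis). The red points Egr2, Id2 and Mbp passed the test at an adjusted p under 0.05, and the others spread to either side of 0.

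Boundary cap cells, neural crest derivatives at the nerve roots that give rise to some glia, share several of these genes. Of 5 of their markers above the filter 2 fell, Egr2 and the netrin gene Ntn5, against 1.11% of all named genes tested. Differences were negative for 5 of 5, against 49.5% of all. Egr2 and Hey2 were also counted among the glial lineage genes above, and Egr2 passed the filter only through the wild-type arrays. Ntn5 fell by 1.36 on the log2 scale (SE 0.18, limma adjusted p = 0.00498), reading 8.89 to 9.39 in the wild-type and 7.57, 7.77, 8.29 and 7.50 in the mutant, again with replicate 3 the highest mutant array. Ednrb is also expressed by cells of the melanocyte lineage. The single melanoblast marker above the filter, Rab38, a small GTPase gene, fell by 0.64 (SE 0.14, adjusted p = 0.0393) with mutant values of 6.91, 6.69, 7.20 and 6.65. Rab38 lost its call when any single array but mutant replicate 3 was left out (adjusted p = 0.0585 to 0.121), and as the mean of its probes it stood at -0.42 without a call (adjusted p = 0.0635). The other 8 melanoblast genes on the array were below the filter.

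The genes whose centred level over the 8 arrays stayed closest to the mean of the 6 members were Spata7, Npy, Egfl8, Tmem74, Agpat5 and Gask1b, out of 316 genes that varied at least as much as that mean. Likeness was the root mean square difference of centred log2 values over the 8 arrays, 0.16 for Spata7, 0.17 for Npy and 0.18 for Egfl8. For the members themselves it was 0.15 to 0.38. These values are not comparable, since each member is part of the mean and the 6 genes were picked as the closest. Art3, Fabp7 and Ednrb also varied less than was required of the 316 genes. Spata7 read 7.07 to 7.71 in the wild-type and 6.40, 6.27, 6.97 and 6.27 in the mutant. All its mutant arrays but replicate 3 were under the filter level of 6.71, so its difference is measured against a dim level. Npy, the neuropeptide Y gene, read 9.06, 9.18, 8.89 and 8.90 in the wild-type and 7.86, 7.98, 8.64 and 7.56 in the mutant. Egfl8, a gene of the EGF-like domain family, read 8.70 to 8.86 in the wild-type and 7.82, 7.66, 7.98 and 7.54 in the mutant. Npy and Egfl8 had non-overlapping groups, with mutant replicate 3 the highest mutant array and replicate 4 the lowest. Since the match was made on all 8 arrays, the group difference of these genes follows from the choice and is given without a test.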

How the data were processed

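Total RNA of 8 dorsal root ganglion samples, 4 per genotype, was hybridised to Illumina bead arrays. The deposited bead intensity values are linear, were made with BeadStudio per the submitters' processing notes, and hold no background subtraction, detection p-values or control probes. The authors' deposited log2 table equals log2 of these intensities after quantile normalization (largest difference 5e-09), so its scale and direction are known; column medians are equal.

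Intensities were corrected with normexp (offset 50), put on the log2 scale and quantile normalized with limma 3.58.1 in R 4.3.3. Of 25697 probes 23978 have 1 gene symbol, 0 several and 1719 none; symbols follow Entrez identifiers in GRCm38.p6 RefSeq. Probes with a mean over 8 arrays above the median of all probes were kept, 12848, and the brightest stood for a gene, giving 9664 features of which 8935 are named genes. limma (lmFit, eBayes, two-sided, mutant minus wild-type, no covariate) was used with Benjamini-Hochberg adjustment; dim probes come from a second fit over every probe. The number of arrays limits the precision.

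Named genes are all members, up to 4 called genes of each list with the smallest adjusted p, or its 2 brightest where none was called, and the 6 genes nearest to the members' mean profile; sex-linked genes were left out. A few further genes, chosen after their values were seen, are marked as such in the text. Members and lists were chosen with earlier results of these data known. Tested on simulated data of 9664 features, the fit found 68.4% of 1.5-fold changes and 90.6% of 2-fold changes, and 4.98% of its calls were false. The simulated noise was independent between genes and arrays, without shared litters or the likeness of array pairs. These rates therefore need not hold for the real arrays. Samples share litters, so p-values measure the spread between these samples. Array positions A to D hold the wild-type and E to H the mutant, so genotype and position cannot be told apart. Replicate numbers did not pair the samples: deviations from group means correlated at -0.28 to -0.05 between same-numbered arrays. Alternatives are in the closing section.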

Additional observations from a re-analysis of the deposited data

Results flagged for a closer look

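Among 102 groups of 4 arrays checked for a value far from the other 3, 6 held one; chance flags about 1 group in 20. Cdh19 read 6.49 on wild-type replicate 3, against 6.75 to 6.80 on the other wild-type arrays. Tmem74 read 8.56 on mutant replicate 3, against 7.50 to 7.55 on the other mutant arrays. The centred level of mesenchyme markers was -0.21 on wild-type replicate 4, against -0.0032 to 0.034 on the other wild-type arrays. Among genes of other lists, Hes5 read 7.90 on mutant replicate 3, against 8.50 to 8.57 on the other mutant arrays, and Fbln1 read 10.70 there, against 10.88 to 10.90. Egfl7 read 10.70 on mutant replicate 4, against 11.03 to 11.10.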

How the results depend on the processing

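Over the alternatives other than the looser threshold, the 6 tested members gave 129 differences, all negative; 109 kept their side of the threshold, 10 lost a call (all Art3) and 10 gained one (Dhh and Metrn). The count of 2 called members became 4 with median scaling, with array weights and at a threshold of 0.10 (Dhh and Metrn joined), 1 without mutant replicates 3 and 4, and 1 to 3 when single arrays were left out, with 3 reached without mutant replicate 3. With no filter, and with every probe on its own, the count was 3 (Dhh joined). It was 0 with the filter at the upper quartile, which left out Plekhb1, Art3 and Dhh. Art3 was the member lost where 1 stayed. With the replicate number as a block, which does not pair these samples, 1 member (Plekhb1) was called, and 82 genes in all. The 224 genes called over all features became 341 with array weights, 443 at a threshold of 0.10, 1218 without wild-type replicates 1 and 2, 96 without mutant replicates 3 and 4, and 67 to 200 when single arrays were left out. The causes were not tested. The share of calls that were lower was 44.2%, and 76.1% under median scaling, which moved the median of all genes to -0.06. Signs turned for the dim probes of 2 members and for 9 uncalled genes of other lists. Foxd3 stood at 0.0086 under median scaling and 0.0016 without wild-type replicates 3 and 4, and Pou3f1 at 0.092 without that pair and at -0.44 to 0.063 when single arrays were left out. Under median scaling Hba-a1 stood at -0.069, Hbb-y at -0.037, Dcn at -0.062, Fbln1 at -0.060 and Egfl7 at -0.11, and as the mean of its probes Egfl7 stood at -0.035. Without wild-type replicates 1 and 2, Fbln1 stood at -0.051, Egfl7 at -0.052 and Nkx6-1 at -0.15; without wild-type replicates 3 and 4, Dcn stood at -0.10, Tnnc1 at -0.049, Tnnt1 at -0.031 and Mcm5 at 0.026. Tnnc1 stood at -0.049 with array weights and at -0.31 without mutant replicates 3 and 4, where Tnnt1 stood at -0.062. With single arrays left out, Dcn ranged from -0.098 to 0.18, Egfl7 from -0.082 to 0.096, Tnnc1 from -0.085 to 0.27 and Tnnt1 from -0.051 to 0.15. Signal over background limits what these 2 probes and Cdh19 can show.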
